A study of Mus musculus with 12 samples.

Results

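MicroRNAs (miRNAs) known for their levels in nerve tissue were followed in gastrocnemius muscle, the large muscle of the calf. They were mmu-miR-338-3p, mmu-miR-338-5p, mmu-miR-9-5p, mmu-miR-124-3p and mmu-miR-128-3p, taken by name (rows whose miRNA symbol equals one of these) and not by their values, and are written below without the mouse prefix. These 5 miRNAs took 10 rows of a table of 2035 rows, which held 1900 mature miRNAs, of which 877 were above 0 in at least 1 library. Small RNA had been sequenced from the muscle of male C57BL/6 mice, 6 of them young (6 months) and 6 aged (24 months), with 1 library for each. All animals were of the same strain, and neither group is labelled with a treatment or a genetic change. No date or preparation batch was given for any library, and per the study's methods the indexed libraries shared a lane of an Illumina GAIIx.

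A miRNA is a short RNA that pairs with messenger RNAs, mainly through its seed (bases 2 to 8), and lowers their translation or stability. It is cut from a hairpin, and either arm of the hairpin (5p or 3p) can be kept as the mature miRNA. miR-124 and miR-9 are made mainly by neurons and their progenitors, and miR-128 is abundant in brain but is also expressed in other tissues, muscle among them. miR-338 is known from myelinating glia, the oligodendrocytes of the brain and the Schwann cells that wrap the axons of peripheral nerves. A limb muscle holds motor and sensory axons with their Schwann cells, whereas the cell bodies of these neurons lie in the spinal cord and in ganglia, outside the muscle.

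The mature sequences below, from RefSeq, show that these miRNAs do not belong to a common seed family. They are written 5′ to 3′ with the seed in capitals, and 4 of the 5 miRNAs were matched.
miR-338-3p: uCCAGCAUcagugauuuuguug
miR-338-5p: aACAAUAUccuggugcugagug
miR-9-5p: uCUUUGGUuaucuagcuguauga
miR-128-3p: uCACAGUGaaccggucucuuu
Each of these 4 seeds differed from the others. Among 1679 distinct mature miRNAs of the mouse in RefSeq, 0 other miRNAs shared bases 2 to 8 with any of them.

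In the GRCm38.p6 build both arms of miR-338 came from a single hairpin (Mir338) on chromosome 11, at chr11:120014765-120014862 on the minus strand, inside an intron of Aatk, the gene of a kinase of the nervous system. The 3p arm lies at chr11:120014781-120014802 and the 5p arm at chr11:120014816-120014837. miR-9-5p has 3 genomic copies. Mir9-1 lies at chr3:88215598-88215686 on the plus strand in an intron of the noncoding gene Gm3764, Mir9-2 at chr13:83738814-83738885 on the plus strand in an exon of the noncoding gene C130071C03Rik, and Mir9-3 at chr7:79505264-79505353 on the plus strand in an intron of Mir9-3hg. miR-128-3p has 2 copies, Mir128-1 at chr1:128202361-128202430 on the plus strand in an intron of R3hdm1 and Mir128-2 at chr9:112118636-112118711 on the minus strand in an intron of Arpp21. miR-124-3p had 3 rows in the table.

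The levels were given as FPKM, in which the reads of a miRNA are divided by its mature length and by the depth of the library. Reads were not given, but the lowest values of each library lay in steps of whole reads, and 99.3% of 3211 low values (under 25 reads) were within 0.15 of a whole read. Depths derived from these steps are rounded. The steps put the depth of young replicates 1 to 6 at 610000, 465000, 299000, 213000, 437000 and 6527000 mapped reads. For aged replicates 1 to 6 it was 1666000, 1372000, 7762000, 1228000, 120000 and 1325000. A single read of a miRNA of 22 nucleotides was therefore worth 5.86 FPKM in aged replicate 3 and 377 FPKM in aged replicate 5. Young replicate 6 and aged replicate 3 stood apart in depth, while young replicates 3 and 4 and aged replicate 5 held under 300000 reads. Apart from young replicate 6 and aged replicate 5, every young library was shallower than every aged library. Depth was thus partly tied to age. Intervals and detection limits given here cover counting error only, and p-values measure the spread between these samples, in which counting error is included.

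The libraries carried the marker miRNAs of skeletal muscle (miR-1a-3p, miR-133a-3p, miR-206-3p and miR-499-5p), whose summed level was 4544284 to 7317348 FPKM in young and 4448886 to 5287195 FPKM in aged muscle. The nerve-associated miRNAs summed to 10753 to 22033 FPKM in young and 11021 to 17377 FPKM in aged muscle. Marker miRNAs of other cell types were also read, with no read of the epithelial ones in some libraries of each age. The summed level in young and aged libraries was 307743 to 455685 and 336491 to 382329 FPKM for endothelium (both arms of miR-126a), and 3896906 to 5861645 and 4795224 to 6106709 FPKM for smooth muscle (miR-143-3p and miR-145a-5p). For white blood cells (4 miRNAs) it was 8449 to 19468 and 11136 to 24904 FPKM, and for red blood cells (miR-451a and miR-144-3p) 5232 to 9366 and 2303 to 9386 FPKM. Epithelial miRNAs (4) summed to 0 to 104 and 0 to 411 FPKM. Each of these marker miRNAs was above 0 in at least 1 library. In whole muscle, fewer cells of a type and less RNA per cell cannot be told apart.

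The 5 miRNAs fell into an abundant pair and a rare trio. miR-128-3p and miR-338-3p were above 0 in 12 of 12 libraries, with mean levels of 7578 and 6042 FPKM over all of them, and ranked 84 and 94 of 1900 miRNAs by mean FPKM. miR-9-5p, miR-338-5p and miR-124-3p had means of 307, 220.4 and 89.5 FPKM and ranked 237, 262 and 325. The 5 together took 0.0232% to 0.0529% of all FPKM summed in a library. In reads, the totals over all libraries were 3402 for miR-128-3p, 2481 for miR-338-3p, 161 for miR-9-5p, 98 for miR-338-5p and 52 for miR-124-3p.

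Within this order only the step between the abundant pair and the rare trio held in every library. miR-338-3p was higher than miR-9-5p in 12 of 12 libraries, and the ratio of the mean FPKM was 19.7. miR-128-3p was higher than miR-338-3p in 8 of 12 libraries (5 young and 3 aged), with a ratio of the means of 1.25. The other neighbours in the order also crossed between libraries, since miR-9-5p exceeded miR-338-5p in 6 of 12 libraries and miR-338-5p exceeded miR-124-3p in 7 of 12. Neither of these neighbours, nor miR-128-3p and miR-338-3p, kept 1 order beyond the spread between libraries.

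**Figure D1:**
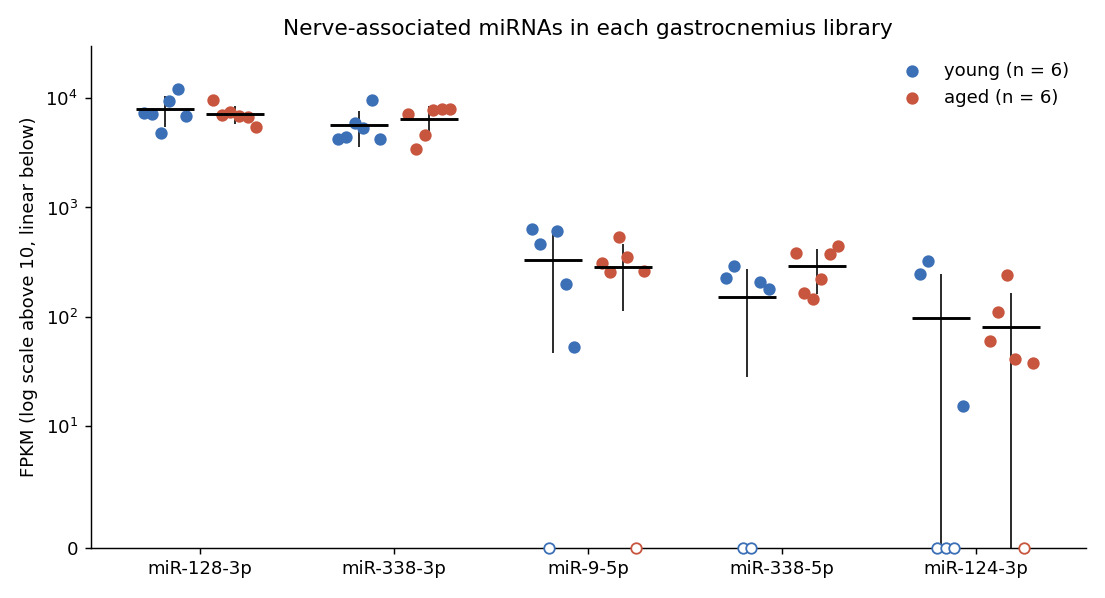
Level of each nerve-associated miRNA in FPKM (vertical axis, log scale above 10 and linear below) in every young and aged library, 6 per age, where a point is a library (open at 0), the horizontal line is the mean and the vertical line the SD. miR-128-3p and miR-338-3p lie at 3444 FPKM or higher in all 12 libraries, the other 3 miRNAs reach 0 in at least 1 library, and the ages overlap in all 5.

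The question put to each of the 5 miRNAs was whether its level differed between young and aged muscle. Of the 5, 0 passed the test. Differences were tested with limma on log2(FPKM + 48.2) over 482 miRNAs, each with a value above 0 in 5 or more libraries, and a miRNA was called at a Benjamini-Hochberg adjusted p under 0.05 over all 482. All 5 miRNAs passed this filter. Over all 482 miRNAs, 14 were called, which is a share of 2.90%, and 3 of these were higher and 11 lower in aged muscle. At an unadjusted p under 0.05 the counts were 0 of the 5 by limma and 62 of 482 (12.9%), and an exact permutation test of each miRNA also gave 0 of the 5. limma voom on the recovered reads called 0 of the 5, against 16 of all 482. It gave an unadjusted p under 0.05 to 1 of the 5, miR-9-5p. The share of all 482 at this unadjusted p was not counted for limma voom. The young and the aged libraries overlapped for every one of the 5, while they did not overlap for 13 of the 482 (2.70%). The median difference, aged minus young, was 0.20 on the log2 scale for the 5 miRNAs and 0.07 for all 482.

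miR-338-3p, the arm of the glial hairpin that is mostly kept, lay at a mean of 5618 ± 2047 FPKM in young and of 6466 ± 1941 FPKM in aged muscle (SD, n = 6 each). The lowest, median and highest library were at 4211, 4879 and 9542 FPKM in young and at 3444, 7416 and 7968 FPKM in aged muscle. Young replicate 5 was the highest library of all 12 and aged replicate 2 the lowest, so each age held an extreme, although 4 of 6 aged libraries lay above the young median. The difference was 0.20 on the log2 scale (SE 0.22, limma adjusted p = 0.742), with a 95% interval from −0.25 to 0.65.

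For miR-338-5p, the rarer arm of the same hairpin, the values of young replicates 1 to 6 were 224, 294, 0, 0, 208 and 181 FPKM, and the 6 aged libraries in the same order stood at 380.04, 167, 146, 221, 377 and 446 FPKM. These levels stood for 3, 3, 0, 0, 2 and 26 reads and for 14, 5, 25, 6, 1 and 13 reads. The libraries without a read were the shallow young replicates 3 and 4, in which 0 reads allow up to 457 and 641 FPKM, more than the highest value in any other library. The means were 151 ± 123 FPKM in young and 289.5 ± 127 FPKM in aged muscle (SD, n = 6 each). The difference of 1.05 on the log2 scale was the largest of the 5 in size (SE 0.58, interval −0.14 to 2.25, limma adjusted p = 0.453), and it was 0.13 when the 3 libraries under 300000 reads were left out, a step chosen after seeing the data.

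miR-9-5p, a miRNA of neurons and their progenitors, was at 639.9, 465, 0, 615, 198 and 53.2 FPKM in young replicates 1 to 6 and at 311, 254, 536, 352, 0 and 261 FPKM in aged replicates 1 to 6. The reads behind these levels were 9, 5, 0, 3, 2 and 8 in young and 12, 8, 96, 10, 0 and 8 in aged muscle. The 2 libraries without a read, young replicate 3 and aged replicate 5, allow up to 437 and 1083 FPKM. The means were 329 ± 282 FPKM in young and 286 ± 174 FPKM in aged muscle (SD, n = 6 each), so that the SD was 85.9% and 60.8% of the mean. The difference was 0.07 on the log2 scale (SE 0.68, interval −1.34 to 1.48, limma adjusted p = 0.990), and it ran from −0.41 without young replicate 3 to 0.57 without aged replicate 5. limma voom on the recovered reads, which weights deep libraries more, gave 1.499 (adjusted p = 0.163), while the mean FPKM was lower in aged muscle, so the direction depended on the measure.

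miR-124-3p, a miRNA of differentiated neurons, was the rarest of the 5 and above 0 in 8 of 12 libraries. It stood at 248, 323, 0, 0, 0 and 15.3 FPKM in young replicates 1 to 6 and at 60.1, 110.3, 239, 40.8, 0 and 37.8 FPKM in aged replicates 1 to 6. Aged replicate 3 held 37 of the 52 reads, and no other library held more than 3. In the 4 libraries without a read (young replicates 3, 4 and 5 and aged replicate 5), the limits at 3 reads were 502, 705, 343 and 1245 FPKM, all above the highest level seen anywhere, so an absence could not be shown at this depth. The means were 97.7 ± 147 FPKM in young and 81.3 ± 85.2 FPKM in aged muscle (SD, n = 6 each), with a difference of 0.20 on the log2 scale (SE 0.58, interval −0.99 to 1.39, limma adjusted p = 0.933). The mean FPKM was thus lower and the mean log2 level higher in aged muscle. Without aged replicate 3 the log2 difference was −0.073, and it was 1.83 with a pseudocount of 1 FPKM and 1.31 by limma voom, with adjusted p values of 0.716 and 0.372.

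miR-128-3p, the most abundant of the 5, lay at a mean of 7967 ± 2502 FPKM in young and of 7189 ± 1351 FPKM in aged muscle (SD, n = 6 each). The lowest, median and highest library were at 4798, 7271 and 12085 FPKM in young and at 5410, 6972 and 9544 FPKM in aged muscle. The lowest and the highest library were thus both young, and the aged libraries lay between them. The difference was −0.11 on the log2 scale (SE 0.18, limma adjusted p = 0.861), with an interval from −0.49 to 0.27, the narrowest of the 5. It was 0.021 without young replicate 5, the highest library.

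**Figure D2:**
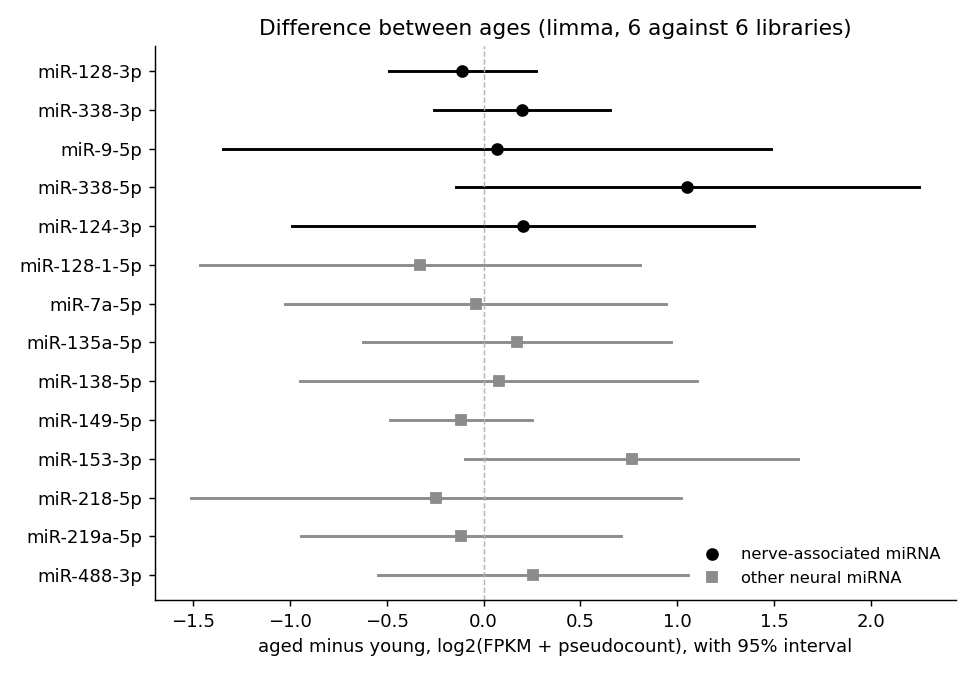
Difference between aged and young muscle on the log2(FPKM + 48.2) scale (horizontal axis) with its 95% interval from limma, for the 5 nerve-associated miRNAs and the 9 other neural miRNAs tested. Every interval crosses 0, and the intervals of miR-338-3p and miR-128-3p are narrower than those of miR-9-5p, miR-124-3p and miR-338-5p.

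The abundant pair was measured more precisely than the rare trio. Within the age groups the SD on the log2(FPKM + 48.2) scale was 0.37 for miR-128-3p and 0.48 for miR-338-3p, against 1.01 for miR-338-5p, 1.17 for miR-124-3p and 1.43 for miR-9-5p. Among miRNAs whose mean level lay within 1 log2 unit, 63.0% of 46 had a smaller SD than miR-128-3p and 83.3% of 48 a smaller SD than miR-338-3p. The corresponding shares were 60.0% of 110 for miR-338-5p, 96.9% of 96 for miR-9-5p and 95.4% of 217 for miR-124-3p. miR-9-5p and miR-124-3p thus varied more between libraries of an age than nearly all miRNAs of like level.

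Libraries without a read are part of this spread. The 2 deepest libraries, 1 of each age, both had reads of all 5 miRNAs. They were set side by side after the values had been seen, and the ratios compare these libraries and not the ages. miR-338-3p, miR-338-5p and miR-128-3p had ratios near 1 between the read rates of aged replicate 3 and young replicate 6, and each interval included 1. The ratios were 1.10 (exact 95% counting interval 0.989 to 1.23), 0.809 (0.448 to 1.46) and 1.08 (0.995 to 1.18). In contrast, miR-9-5p had 96 reads in aged replicate 3 and 8 in young replicate 6, a ratio of read rates of 10.1 (4.92 to 24.0). miR-124-3p had 37 and 2 reads, a ratio of 15.6 (4.01 to 133). Among the 419 miRNAs with at least 10 reads in both libraries together and at least 1 in each, the median ratio was 1.01 and the 5th to 95th percentiles were 0.420 to 2.04. miR-124-3p and miR-9-5p were the highest and the second highest of these 419, followed by miR-6896-5p at 7.57, and 0 miRNAs with 10 or more reads in either library were without a read in the other.

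**Figure D3:**
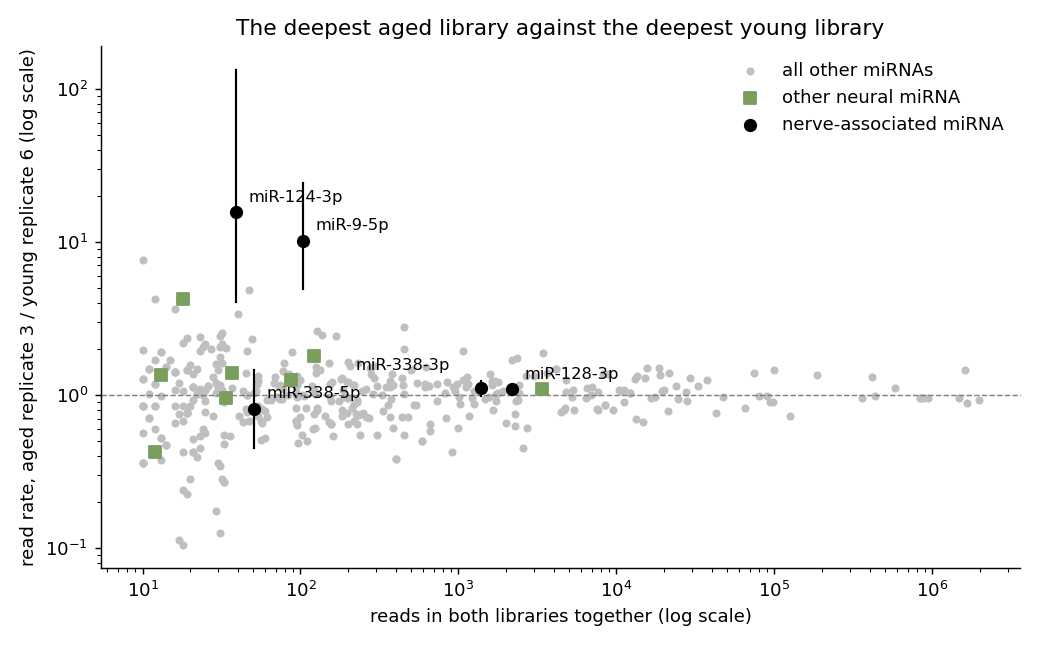
Ratio of the read rate in aged replicate 3 to that in young replicate 6 (vertical axis, log scale) against the reads of both libraries together (horizontal axis, log scale), for 419 miRNAs, with exact 95% counting intervals for the 5 nerve-associated miRNAs. miR-124-3p at 15.6 and miR-9-5p at 10.1 stand above all others, while miR-338-3p, miR-338-5p and miR-128-3p lie near 1.

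Set against all libraries, young replicate 6 was the low one of that pair and held 8 reads of miR-9-5p. Aged replicate 3 was the highest of the aged libraries with a read for both miR-9-5p and miR-124-3p. Its intervals overlapped those of the other aged libraries with a read. In young replicate 6 the rate of miR-9-5p was 1.23 reads per 1000000 mapped reads (exact 95% interval 0.529 to 2.42), whereas the rate was 14.8 (6.75 to 28.02) in young replicate 1, 10.7 (3.49 to 25.1) in young replicate 2, 14.1 (2.91 to 41.2) in young replicate 4, 4.57 (0.554 to 16.5) in young replicate 5 and 12.4 (10.0 to 15.1) in aged replicate 3. The other aged libraries with a read were at 5.83 to 8.14 reads per 1000000, with intervals that together ran from 2.52 to 14.98. miR-124-3p was at 0.306 reads per 1000000 (0.0371 to 1.11) in young replicate 6, at 4.92 (1.01 to 14.4) and 6.45 (1.33 to 18.8) in young replicates 1 and 2, which held 3 reads each, at 4.77 (3.36 to 6.57) in aged replicate 3 and at 0.755 to 2.19 in the other aged libraries with a read. Young replicate 6 was thus the lowest of the libraries with a read for both neuronal miRNAs. Depth limits this ranking, because a single read in a shallower library stands for a higher rate. In aged replicate 6, 1 read of miR-124-3p already gave 0.755 reads per 1000000, above the rate in young replicate 6. The interval of young replicate 6 lay below that of aged replicate 3 for both miRNAs. For miR-124-3p it overlapped that of young replicate 1 and those of the other aged libraries, so those libraries could not be ordered at this depth. Reads of miR-124-3p made up 24.4% (exact 95% interval 18.8% to 30.8%) of the reads of both miRNAs over all libraries, 27.8% (20.4% to 36.3%) in aged replicate 3 and 9.09% to 37.5% in the libraries in which both were read. Aged replicate 3 held 71.6% of the aged reads of miR-9-5p and 84.1% of those of miR-124-3p.

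**Figure D4:**
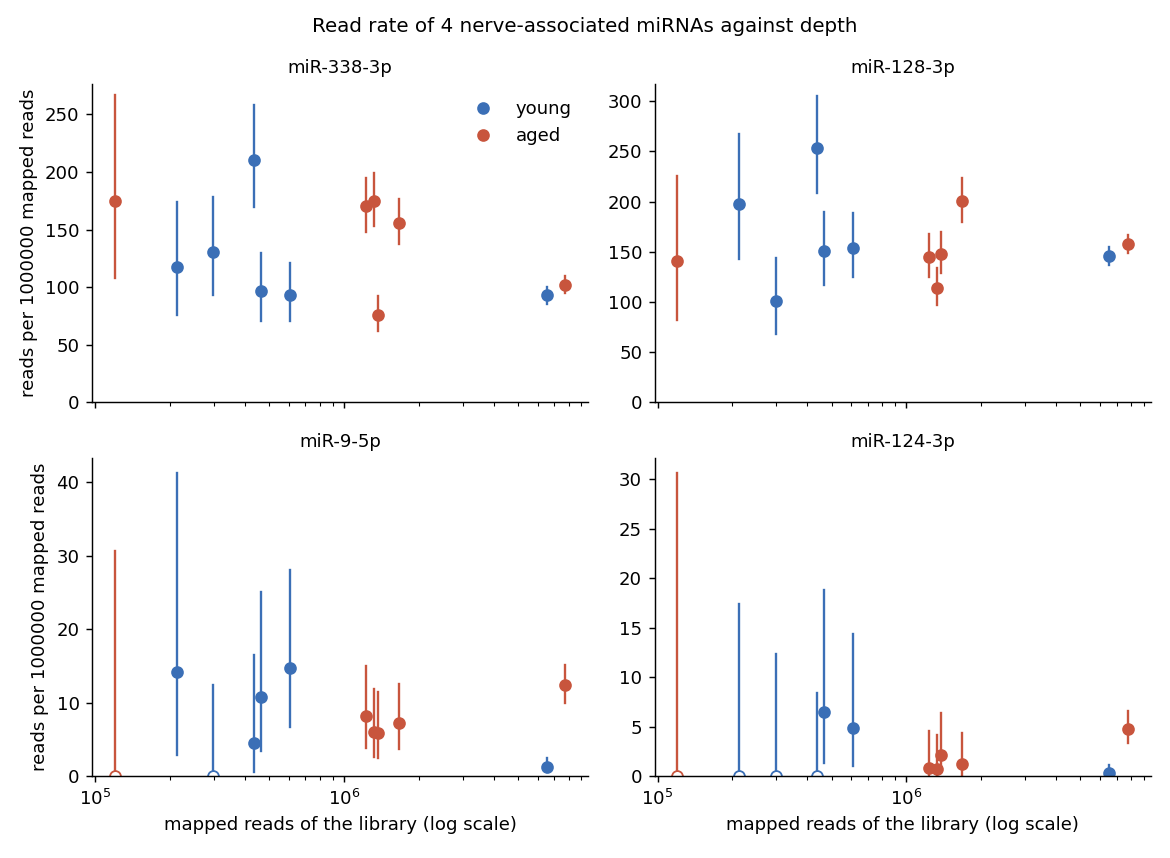
Reads per 1000000 mapped reads of 4 nerve-associated miRNAs (vertical axes, linear) against the mapped reads of each of the 12 libraries (horizontal axes, log scale), with exact 95% counting intervals and open points where no read was found. Among the libraries with a read, the rates of miR-9-5p and miR-124-3p are lowest in young replicate 6, at 1.23 and 0.306, and both are higher in aged replicate 3, at 12.4 and 4.77. A single read in a shallower library stands for a higher rate.

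The 2 arms of the miR-338 hairpin were compared next, as shares of the reads of the hairpin and as a ratio of levels. The 5p arm made up 3.79% of the miR-338 reads pooled over the young libraries and 3.80% of those pooled over the aged libraries. These pooled shares lean on the deepest libraries. Young replicate 6 held 76.5% of the young 5p reads and 70.1% of the young 3p reads. Aged replicate 3 held 39.1% and 48.9% of the aged ones. In single libraries the share of the 5p arm was 0% to 6.25%. In the deepest libraries it was 4.12% (exact 95% interval 2.71% to 5.98%) in young replicate 6 and 3.06% (1.99% to 4.48%) in aged replicate 3. The shares of 0% came from young replicates 3 and 4, where 0 of 39 and 0 of 25 reads allow a share of up to 7.69% and 12%. On the log2 scale with the pseudocount in both arms, the ratio of 3p to 5p was 5.15 ± 1.44 in young and 4.30 ± 0.35 in aged muscle (SD, n = 6 each). The difference of −0.85 did not pass the two-sided exact permutation test (p = 0.234, where the smallest p that 924 splits allow is 0.00216). It was 0.031 (exact permutation p = 0.921) without the 3 shallow libraries, and because the pseudocount weighs on the rare 5p arm it ran from −2.65 with a pseudocount of 1 FPKM to −0.11 with one 10 times as large.

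**Figure D5:**
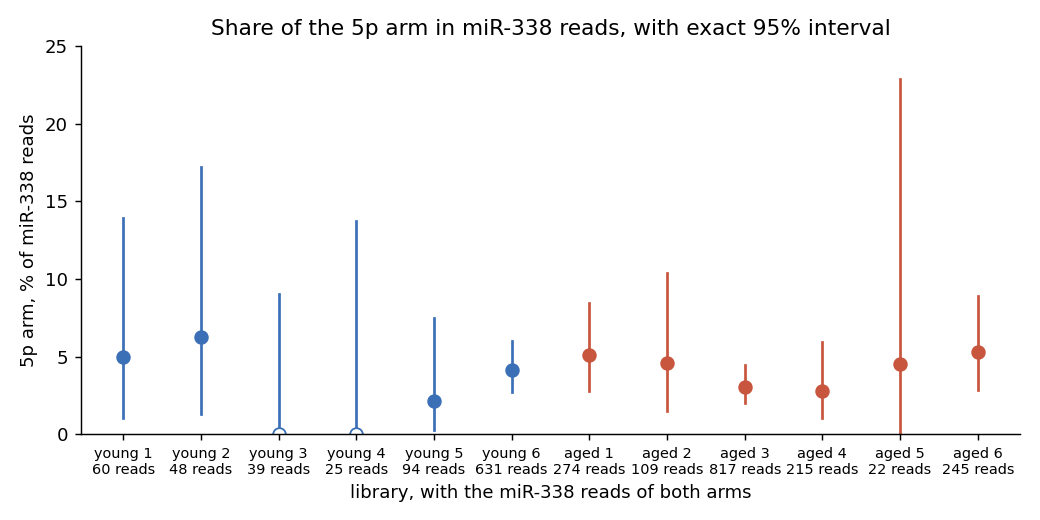
Share of the 5p arm in the miR-338 reads of each library, in percent (vertical axis), with its exact 95% binomial interval. The share lies between 0% and 6.25% in all 12 libraries, the 2 libraries at 0% hold 39 and 25 miR-338 reads, and the intervals of the young and aged libraries overlap. Reads of the opposite strand are not told apart from these.

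The values of miR-338-3p could not be separated from those of a miRNA of the opposite strand. miR-3065 is annotated on the plus strand across the same hairpin, at chr11:120014767-120014853, and its 5p arm has 21 bases complementary to miR-338-3p.
miR-338-3p: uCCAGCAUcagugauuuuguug
miR-3065-5p: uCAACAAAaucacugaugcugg
The capitals again mark the seeds, which differ. Both miRNAs had the same value in 12 of 12 libraries (mean log2 difference 0, SD 0). miR-338-5p and miR-3065-3p were above 0 in the same 10 libraries, with a mean log2 difference of 0.07 (SD 0.0042). Thus reads of the 2 strands cannot be told apart in this table. The same limit holds for the arm shares and the ratio of 3p to 5p given above.

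The genomic copies of miR-9-5p held 55, 49 and 57 reads, and those of miR-124-3p 18, 14 and 20 reads, so the copies of each were close to equal. For miR-128-3p the copies, not matched here to Mir128-1 or Mir128-2, held 2003 and 1399 reads. The first was the higher by 1.13- to 2.83-fold over the libraries. The mature sequence of the copies is the same, and how reads were assigned to copies is not given. Which gene was transcribed was not tested. The other arms of these hairpins were rarer. miR-9-3p had 3 reads in 2 libraries, and miR-124-5p and miR-128-2-5p had 0 reads in all 12. miR-128-1-5p was above 0 in 11 libraries, with a mean of 304 FPKM, and its read rate in aged replicate 3 was 1.79 times that in young replicate 6 (exact 95% counting interval 1.21 to 2.69).

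A list of 20 other miRNAs known from neurons or glia was read in the same way. Of these 20, 18 were above 0 in at least 1 library, 9 in at least 5 and 2 (miR-138-5p and miR-149-5p) in all 12. By limma, 0 of the 9 tested were called and 0 had an unadjusted p under 0.05, against 2.90% and 12.9% of all 482, and limma voom also gave 0 and 0. The difference was positive for 4 of the 9, and their median was −0.04 on the log2 scale. miR-149-5p was the most abundant, at a mean of 11970 FPKM with a difference of −0.11, and miR-138-5p, which is found at synapses, differed by 0.08. The others were less abundant. The differences were −0.04 for miR-7a-5p, 0.17 for miR-135a-5p, −0.24 for miR-218-5p, which is abundant in motor neurons, −0.12 for miR-219a-5p, a miRNA of myelinating oligodendrocytes, −0.33 for miR-128-1-5p, 0.26 for miR-488-3p and 0.76 for miR-153-3p (limma adjusted p = 0.451). Between aged replicate 3 and young replicate 6, those with at least 10 reads in both together had ratios of read rates on both sides of 1. The ratio of read rates was 4.20 for miR-488-3p (15 and 3 reads, exact 95% counting interval 1.19 to 22.7) and 0.420 for miR-219a-5p (4 and 8 reads, 0.0927 to 1.57). It was 0.946 for miR-7a-5p, 1.25 for miR-138-5p, 1.35 for miR-153-3p and 1.38 for miR-218-5p, and each of these intervals included 1. For miR-149-5p the ratio was 1.09 (1.01 to 1.16) and for miR-128-1-5p 1.79 (1.21 to 2.69).

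Last, it was asked whether the abundant miRNAs moved together across libraries. miR-338-3p and miR-128-3p were the only pair above 0 in all 12. Over the 12 libraries Pearson's r was 0.19 (permutation p = 0.555) and Spearman's rho −0.05 (permutation p = 0.885), with a single pair tested and so no adjustment. Without the 2 libraries farthest from the median of miR-338-3p (young replicate 5 and aged replicate 2), r was −0.20, and within the ages it was 0.53 in young and −0.18 in aged muscle. Among 214 candidate miRNAs, from which miR-3065 and the other arms of the same hairpin were left out, the ones most like miR-338-3p over the 12 libraries were miR-30a-3p (Pearson's r 0.72), miR-182-5p (0.69) and miR-3061-3p (0.66). Those most like miR-128-3p were miR-22-3p (0.92), miR-133a-5p (0.88) and miR-126b-5p (0.88). These coefficients are descriptions over libraries that share their scaling and differ in depth.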

How the data were processed

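The authors extracted small RNA with the mirVana kit, made 1 Illumina library per muscle, mapped trimmed reads to mm10 and computed FPKM for mature miRNAs of miRBase 20. The methods name BWA at default options and the labels name TopHat2. Use of strand and the treatment of reads that fit several places are not given in the sources used here. The deposited values are log2 of FPKM, with 0 for no read. Other per-sample columns numbered 0.

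The log was undone, zeros were kept and genomic copies were summed. The smallest value among miRNAs of 22 nucleotides was taken as 1 read, which gave reads and depth (120000 to 7762000 mapped reads). Levels were tested as log2(FPKM + 48.2), where 48.2 FPKM is the smallest value above 0 of a library, as the median of the 12 libraries, with limma 3.58.1 in R 4.3.3 (eBayes with trend, two-sided, no covariate) and Benjamini-Hochberg adjustment over 482 miRNAs. Exact tests ran over all splits of 6 against 6, and correlations used 100000 resamples. Counting intervals were exact at 95%, and the detection limit was 3 reads. Scripts used Python 3.11.15, pandas 2.3.3, NumPy 2.4.6 and SciPy 1.17.1, and the fit was tested on simulated data. Sequences and hairpin positions are from RefSeq (GRCm38.p6) and host genes from the GENCODE annotation of the same assembly. For miR-124-3p the length of 20 nucleotides was read from the steps of its values.

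The 5 members, the other neural list, the marker lists and the tests were chosen with earlier results of these data known. Named were the members, the other arms of their hairpins, miR-3065, the listed neural and marker miRNAs and the 3 miRNAs most alike, and miR-6896-5p was named after its value was seen. Alternatives were other pseudocounts, filters, scalings, tests and copy rules, a replicate block, depth as a covariate and leaving out each library. Same-numbered libraries did not deviate together, so the replicate number was not used for pairing. Leaving out the 3 shallow libraries was chosen after seeing the data.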

Additional observations from a re-analysis of the deposited data

Results flagged for a closer look

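Among 30 groups of 6 libraries of the nerve-associated and other neural miRNAs, 4 held a library whose gap to the nearest other was large for the range of the group. A rate of 1 in 20 would give 1.5. This rate was not checked for groups in which several libraries held no read and so shared a value. miR-9-5p in aged replicate 5 was at 5.59 on the log2(FPKM + 48.2) scale, the value of no read, while the other aged libraries were at 8.24 to 9.19. miR-128-1-5p in the same library was also at 5.59, against 8.35 to 9.13. Aged replicate 5 was the shallowest library, at 120000 reads, and 0 reads of miR-9-5p there allow up to 1083 FPKM, which is above every other value of this miRNA. The part of depth in both values was not tested further.

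The other 2 came from young replicate 2. miR-135a-5p was at 7.87 there and without a read in the other young libraries, and miR-488-3p was at 7.24, with the others at 5.59 to 6.13. Few reads stood behind both values in this library of 465000 reads. The value of miR-135a-5p stood for 2 reads. All young libraries together held 4 reads of miR-488-3p, 3 of them in young replicate 6.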

How the results depend on the processing

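Of the 5 nerve-associated miRNAs, 0 were called under each of 25 alternatives, and miR-338-3p and miR-338-5p kept their direction under all that gave a value. The difference of miR-9-5p was −0.034 with a pseudocount 10 times as large, −0.029 for the highest copy in place of the sum and −0.14 with depth as a covariate. That of miR-124-3p was −0.018, −0.034 and −0.055 with the larger pseudocount, with depth as a covariate and without the shallow libraries, and it was not tested under the filter of 10 libraries. The causes were not tested. Leaving out 1 library at a time gave 0.13 to 0.37 for miR-338-3p, 0.72 to 1.28 for miR-338-5p, −0.41 to 0.57 for miR-9-5p, −0.073 to 0.59 for miR-124-3p, −0.24 to 0.021 for miR-128-3p, −1.14 to −0.49 for the arm balance and −0.17 to 0.36 for the correlation. The arm balance was 0.031 without the shallow libraries, −2.65 with a pseudocount of 1 FPKM and −0.11 with the larger one, and the correlation was −0.18 within aged muscle. The rare miRNAs also moved with how low values were treated. For miR-338-5p a pseudocount of 1 FPKM gave 2.85, the larger one 0.29 and limma voom on reads 0.28, and for miR-124-3p the pseudocount of 1 FPKM gave 1.83 and limma voom 1.31. At 0 reads, the shallow libraries allow more FPKM of miR-338-5p and miR-124-3p than any library showed. For miR-9-5p, limma voom fitted across all tested miRNAs gave 1.499 (limma adjusted p = 0.163). Over the alternatives the adjusted p ran from 0.427 to 0.897 for miR-338-3p, 0.347 to 0.876 for miR-338-5p, 0.163 to 1 for miR-9-5p, 0.372 to 0.999 for miR-124-3p and 0.611 to 0.987 for miR-128-3p. Over all miRNAs, 14 were called, against 6 to 19 under the limma alternatives (6 with a pseudocount of 1 FPKM, 19 with quantile normalization) and 0 by the exact permutation test with adjustment. Same-numbered libraries had correlations of their deviations from −0.09 to 0.09, so the numbers did not pair the samples. With a replicate block the differences equalled those without it, the adjusted p values were 0.736 for miR-338-3p, 0.458 for miR-338-5p, 0.991 for miR-9-5p, 0.922 for miR-124-3p and 0.859 for miR-128-3p, and the arm balance was −0.85.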
